A study of Mus musculus with 6 samples.

Results

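Spindle assembly factors are the proteins that nucleate, bundle, crosslink and focus the microtubules of the mitotic spindle. The group described here was chosen by name, from the known roles of its members, and holds 10 genes: Tpx2, Tacc3, Ckap5, Ckap2, Ckap2l, Numa1, Nusap1, Spag5, Hmmr and Aspm. Earlier results of these data were known when it was chosen. All 10 were among the 22057 genes measured and among the 17068 that were abundant enough to be tested. The samples were libraries of polyadenylated RNA from neural progenitor cells (precursors that divide and give rise to neurons and glia) of 3 mice numbered 62, 68 and 69. Both groups came from the same 3 mice and both were p53-null, that is, without the tumour suppressor encoded by Trp53, so no comparison with p53-containing cells was possible. The EF group (n = 3) was kept for 4 days in stem cell medium with EGF, FGF and heparin, and is the control of the series. The PDGFA group (n = 3) was kept for 4 days in medium with PDGFA, which the growth protocol lists with a concentration of 20 ug/ml. The comparison is of whole media, so adding PDGFA and any change in EGF, FGF or heparin cannot be told apart. The labels give neither the age and sex of the mice nor the way in which p53 was removed.

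A spindle forms when microtubules grow from the centrosomes, around the chromosomes and along existing microtubules, and are then sorted into a bipolar array with focused poles. Around chromosomes the GTPase Ran releases factors such as TPX2 from importins, and TPX2 in turn activates the kinase Aurora A. Most spindle factors are made in the G2 phase and in mitosis, whereas ch-TOG (Ckap5) and NuMA (Numa1) also have roles in, or are stored in, cells between divisions. In neural progenitors the orientation of the spindle and the integrity of its poles bear on how daughter cells are placed, and loss of Aspm causes microcephaly.

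In PDGFA medium 8 of the 10 spindle assembly genes fell, none rose, and Ckap5 and Numa1 did not pass the test. A gene was called where the adjusted p of limma, a linear model fitted to all 17068 genes, was at or below 0.05. Across those genes 18.0% were called lower and 21.8% higher. The values of the 8 genes did not overlap between the groups, which was also the case, with PDGFA lower, for 26.3% of tested genes. The median log2 fold change, PDGFA against EF, was -4.57 for the 10 members and -0.01 for all tested genes. Among the 3076 genes called lower, Hmmr held rank 7 by size of the fall, Aspm 33, Ckap2l 48, Tpx2 105, Nusap1 133, Tacc3 362, Spag5 452 and Ckap2 975. RNA from a mixed culture cannot tell fewer dividing cells apart from less RNA per cell, which holds for every fall given here.

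**Figure D1:**
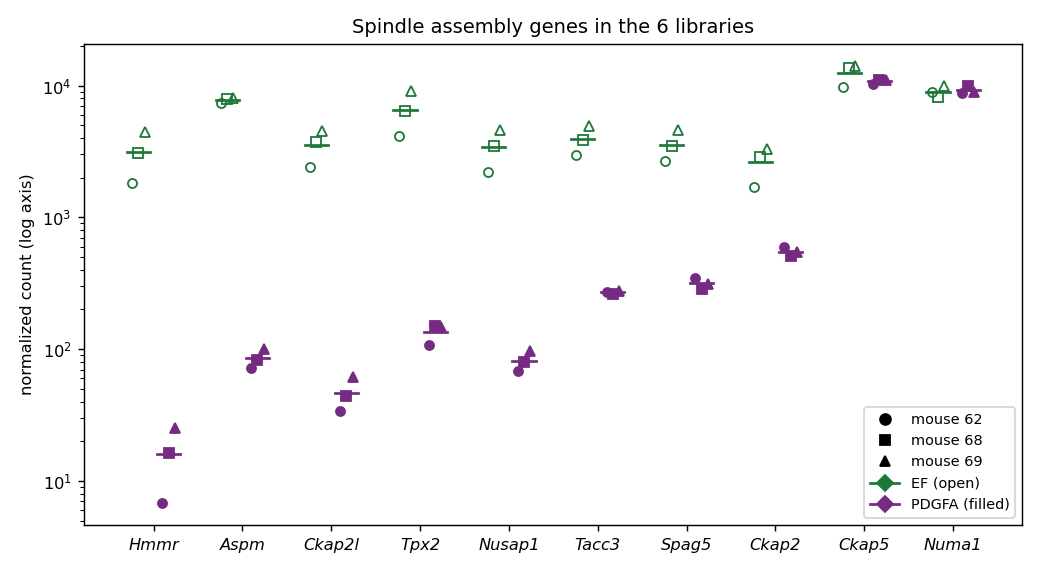
Normalized count of each spindle assembly gene (vertical axis, log scale) in the 3 EF and 3 PDGFA libraries, with a symbol for each of mice 62, 68 and 69 (EF open, PDGFA filled) and a bar at each group mean. The groups are separate for 8 genes, furthest for Hmmr (1820.5 to 4478 against 6.79 to 25.1), and overlap for Ckap5 and Numa1.

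The libraries held 27270246 to 30151469 recovered reads in EF and 34812800 to 39601349 in PDGFA. Trp53 itself gave a normalized count of 2081 ± 367 (SD, n = 3) in EF and 1070 ± 71.6 (SD, n = 3) in PDGFA. Which part of Trp53 is missing is not given in the labels, so these values are no check of the label. The 8 neural progenitor markers, which include Nes and Sox2, summed to 78026 to 188277 normalized counts in EF and 53920 to 56963 in PDGFA, with 4 lower (1 without both libraries of mouse 68) and 3 higher (1 without PDGFA of mouse 68 and with limma without a trend). Sox2 and Prom1, among those 3, each lost their call in 6 alternatives. The 8 markers of maturing oligodendrocytes, the myelin-forming glia, summed to 2449 to 3864 in EF and 285600 to 361511 in PDGFA. All of these 8 rose, and Mog, a late myelin gene, was at 0 in every EF library. The 8 oligodendrocyte precursor markers summed to 161552 to 311396 in EF and 184085 to 265731 in PDGFA, with 3 lower (1 without both libraries of mouse 68) and 3 higher. These sums hide opposite changes. Gpr17, C1ql1 and Sox10 had log2 fold changes of 8.59, 5.71 and 5.28, and Cspg4, Olig1 and Olig2 of -1.77, -1.14 and -0.98. EF of mouse 68 stood apart for Pdgfra, which was not called, at 14133 against 861 (mouse 62) and 533 (mouse 69). The 8 astrocyte markers summed to 48246 to 87037 in EF and 173435 to 282353 in PDGFA, with 5 higher. Neuron markers, of which 6 were tested, summed to 25061 to 30550.2 in EF and 29204 to 39349 in PDGFA, with 2 higher. Map2, which was not called, made up most of these sums (means 26265.5 in EF and 29493 in PDGFA). The 2 called were Tubb3 and Dcx, with log2 fold changes of 2.01 and 6.37. The endothelial and pericyte markers summed to 73.7 to 174.5 in EF and 1259 to 1590.3 in PDGFA, with 1 lower and 3 higher of 4, and without Cdh5 and Cldn5, which were not listed. The 1 lower call, Pecam1, was lost with mouse as a block (adjusted p = 0.0713) and in 5 fits that left out libraries (0.078 to 0.277). Microglia markers, 2 of 6 listed, summed to 11.5 to 44.7 in EF and 5.73 to 8.96 in PDGFA, and the 1 tested, P2ry12, was called lower at an adjusted p of 0.0484 from limma. That call was lost with mouse as a block (adjusted p = 0.059) and in 7 other alternatives. The part of these other cell types in the changes of the spindle genes was not tested.

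Tpx2 (chromosome 2, 152847964 to 152895321, plus strand; all positions of genes are on GRCm38 in GENCODE M21), the factor that targets and activates Aurora A, gave normalized counts of 4141, 6429.9 and 9082 in EF and of 107, 149 and 147 in PDGFA, for mice 62, 68 and 69 in that order here and below. Each PDGFA library lay far below every EF library, and EF of mouse 69 was highest. The means were 6551 ± 2473 (SD, n = 3) and 134 ± 23.7 (SD, n = 3), 48.8-fold lower in PDGFA. The log2 fold change was -5.54 (SE 0.29, limma adjusted p = 2.33e-05). This and all other log2 values compare log2(normalized count + 1), which understates changes of low genes.

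Of the genes that release TPX2 from importins or otherwise belong to the Ran pathway, 5 of 7 fell and none rose, with a median log2 fold change of -1.19. Kpna2, an importin alpha, fell by 2.97, Rcc1, the exchange factor that loads Ran with GTP on chromatin, fell by 1.90 and Ran itself fell by 1.24 on the log2 scale. Kpnb1, importin beta, and Rae1 did not pass the test. Without both libraries of mouse 68, 2 of these 7 genes were still called and Ran was not (adjusted p = 0.0633). Rangap1 and Ranbp1, also among the 5 called (limma adjusted p = 0.0298 and 0.0423), each lost their call in 7 alternatives. In the Aurora A group, with its activators and the spindle motors, all 6 genes fell, with a median of -4.51, and did so under each alternative setting. Plk1, the kinase that Aurora A activates together with Bora, fell by 6.49 on the log2 scale (limma adjusted p = 3.45e-05). Kif11, the motor that pushes the poles apart, fell by 5.57 and Aurka, Aurora A itself, fell by 4.66 (limma adjusted p = 2.42e-05 and 5.59e-05).

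Tacc3 (chromosome 5, 33658128 to 33678995, plus strand) encodes the Aurora A substrate that joins ch-TOG and clathrin in bridges between kinetochore microtubules. Its normalized counts were 2952, 3879.8 and 4958 in EF and 271, 263 and 274 in PDGFA. The PDGFA libraries lay within a narrow band, below all EF libraries. The mean fell 14.6-fold, from 3930.0 ± 1004 (SD, n = 3) to 269 ± 5.95 (SD, n = 3), with a log2 fold change of -3.83 (SE 0.20, limma adjusted p = 2.26e-05).

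Ckap5 (chromosome 2, 91526762 to 91620664, plus strand) encodes ch-TOG, the microtubule polymerase that TACC3 brings to the spindle. It gave 9799.7, 13514 and 14105 normalized counts in EF and 10302, 10977 and 11029 in PDGFA. The groups overlapped because EF of mouse 62 was the lowest of all 6 libraries, and PDGFA was lower in 2 of 3 mice. The log2 fold change was -0.19 (SE 0.17, 95% interval -0.60 to 0.21, limma adjusted p = 0.41). As a percentage of the EF level the interval runs from -34.1% to 15.9%. Without EF of mouse 62 the gene was called lower, at -0.36 (limma adjusted p = 0.039), and over all alternatives its adjusted p ran from 0.039 to 0.756.

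The other genes listed with this bridge, which include the Tacc3 paralogs Tacc1 and Tacc2, moved apart. Of 6, 2 fell and 1 rose, and these calls were the same in number in each alternative. Gtse1, which binds clathrin on the spindle and stabilises microtubules, went from 810.2, 1465 and 2149 normalized counts in EF to 16.1, 23.9 and 26.9 in PDGFA, a log2 change of -5.91 (limma adjusted p = 4.66e-05). Tacc2, a paralog of Tacc3, fell by 1.63 on the log2 scale. The clathrin light chain gene Cltb rose by 1.68 (limma adjusted p = 0.000217). The clathrin heavy chain gene Cltc, which serves vesicle traffic in all cells, had a log2 fold change of 0.01 (limma adjusted p = 0.954).

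The paralog Tacc1 was level while Tacc3 fell, at 2587 ± 173 (SD, n = 3) normalized counts in EF and 2555 ± 161 (SD, n = 3) in PDGFA. Measured within each library, log2 Tacc3 minus log2 Tacc1 stood at 0.22, 0.66 and 0.83 in the EF libraries and at -3.13, -3.34 and -3.25 in the PDGFA libraries. The difference between the group means was -3.81, and the groups did not overlap. An exact two-sided permutation test gave p = 0.1 (also 0.1 after adjustment over the 3 such comparisons made), the smallest that 3 against 3 libraries can give, so this design cannot pass 0.05 in that test. It did not use the pairing by mouse. An exact sign-flip test on the differences within mice gave p = 0.25 for each of the 3 comparisons, and cannot pass 0.05 either.

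Numa1 (chromosome 7, 101934111 to 102014964, plus strand) encodes NuMA, which gathers microtubule minus ends at the poles with dynein, anchors the spindle to the cortex, and resides in the nucleus between divisions. Its normalized counts were 8944, 8204 and 9869 in EF and 8798, 9883 and 8863 in PDGFA. The groups overlapped almost fully. The log2 fold change was 0.03 (SE 0.14, 95% interval -0.29 to 0.35, limma adjusted p = 0.88), an interval from -18.3% to 27.5% of the EF level. No alternative called it, and its sign turned in some of them.

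Among the cortical and dynein partners of NuMA, 7 of 10 genes did not pass the test and the median log2 fold change was 0.34. Of all 17068 tested genes, 10272 did not pass it either. Epb41l2, a protein 4.1 that links membrane and cortex and is also present in glia, rose by 3.70 (limma adjusted p = 9.22e-06), from 3653 ± 277 (SD, n = 3) to 47389.8 ± 1763 (SD, n = 3) normalized counts. Gpsm2 (LGN), the cortical receptor of NuMA, fell by 0.76, and Afdn (afadin), a junction protein that helps to place LGN, fell by 0.77 on the log2 scale (limma adjusted p = 0.0196 and 0.0119). Neither was called without both libraries of mouse 68 (adjusted p = 0.166 and 0.0797). Gpsm2 was also lost without EF (0.055) or PDGFA (0.0761) of mouse 68 or PDGFA of mouse 69 (0.0755), and Afdn without PDGFA of mouse 62 (0.0539). Epb41l2 lies in the same direction as the glial markers above, and the share of those cells in its rise was not tested. DESeq2 called 4 genes of this list higher where limma called 1.

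**Figure D2:**
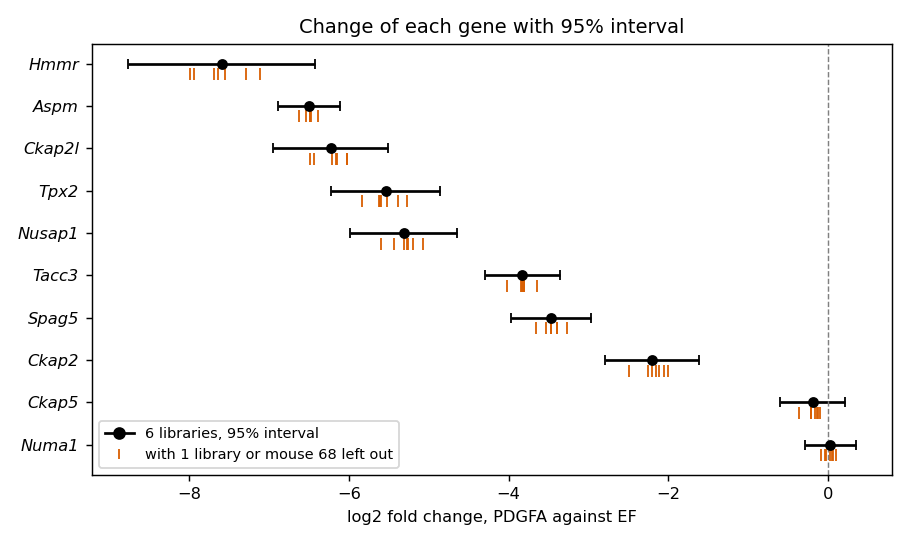
Log2 fold change, PDGFA against EF, of each member (points) with its 95% interval (bars) from limma. Of the 10 members, 8 lie at -2.20 or below with intervals that stay below 0, and the intervals of Ckap5 and Numa1 cross 0.

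Aspm (chromosome 1, 139454772 to 139494091, plus strand) encodes a protein that binds microtubule minus ends at the poles. It had the steadiest EF level of the 8 genes that fell, with normalized counts of 7315, 7839.5 and 8045 in EF and 72.1, 83.1 and 99.5 in PDGFA. The EF values were tight, and every PDGFA value lay far below every EF value. The mean fell 91.1-fold, from 7733 ± 377 (SD, n = 3) to 84.9 ± 13.7 (SD, n = 3), and the log2 fold change was -6.50 (SE 0.17, limma adjusted p = 5.02e-06).

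Other genes whose loss causes small brains, or that act with ASPM at the pole, fell less far as a list. Of 9, 7 fell and the median log2 fold change was -1.55. Stil, a centriole assembly factor, fell by 5.52, Cit, the citron kinase of cytokinesis, fell by 5.43, and Wdr62, a pole partner of ASPM, fell by 2.70 on the log2 scale.

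Hmmr (chromosome 11, 40701395 to 40733422, minus strand) encodes RHAMM, named as a receptor for hyaluronan and found at spindle poles, where it acts with TPX2. Its normalized counts were 1820.5, 3102 and 4478 in EF and 6.79, 16.2 and 25.1 in PDGFA. The PDGFA values rest on 8, 17 and 28 reads, fewer than for any other member. The mean fell 195-fold, from 3134 ± 1329 (SD, n = 3) to 16.0 ± 9.15 (SD, n = 3), to 0.512% of the EF mean. The log2 fold change was -7.60 (SE 0.50, 95% interval -8.77 to -6.42, limma adjusted p = 4.54e-05).

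Of the 6 tested HMMR partners and hyaluronan genes, 4 fell and 1 rose. Bard1, which with Brca1 forms the ubiquitin ligase that acts on HMMR at centrosomes, fell by 3.32 on the log2 scale and Brca1 fell by 2.66. Fam83d, which acts with HMMR and casein kinase on the spindle, fell by 1.80. Cd44, the main cell surface receptor for hyaluronan, fell by 1.25 (limma adjusted p = 0.0341), and lost its call in 6 alternatives. Has2, a hyaluronan synthase, rose by 1.60 (limma adjusted p = 0.0294), a call that was lost with limma without a trend (0.051), without EF of mouse 69 (0.0668) or without PDGFA of mouse 62 (0.096), 68 (0.0701) or 69 (0.0741). Has1 was not listed.

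Nusap1 (chromosome 2, 119618298 to 119651244, plus strand) encodes a protein that bundles microtubules close to chromosomes under the control of Ran and importins. It gave 2196, 3487 and 4559 normalized counts in EF and 68.7, 80.2 and 96.8 in PDGFA. In both media mouse 62 was lowest and mouse 69 highest. The mean fell 41.7-fold, from 3414 ± 1183 (SD, n = 3) to 81.9 ± 14.1 (SD, n = 3), with a log2 fold change of -5.32 (SE 0.29, limma adjusted p = 2.42e-05).

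Spag5 (chromosome 11, 78301529 to 78322457, plus strand) encodes astrin, which holds kinetochore attachments and pole integrity. Its normalized counts were 2657, 3477 and 4561 in EF and 347, 285 and 314 in PDGFA. The groups were well apart, though less so than for Nusap1. The mean fell 11.3-fold, from 3565 ± 955 (SD, n = 3) to 315 ± 31.3 (SD, n = 3), and the log2 fold change was -3.46 (SE 0.21, limma adjusted p = 3.45e-05). Its partners moved in different directions. Knstrn (kinastrin, or SKAP), the dedicated partner of astrin at kinetochores, gave 3486, 4323 and 4746 normalized counts in EF and 50.9, 46.8 and 60.0 in PDGFA, a log2 change of -6.28 (limma adjusted p = 7.87e-06). Dynll1, a dynein light chain with many partners outside mitosis, rose by 1.27 (limma adjusted p = 0.00846), but was not called without both libraries of mouse 68 (0.0703). Mycbp, a further subunit, stood at -0.97 (limma adjusted p = 0.0587) and was not called, but was called lower by DESeq2 (adjusted p = 0.016) and with equal library totals (0.0439).

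Ckap2 (chromosome 8, 22168160 to 22185819, minus strand) encodes a microtubule-stabilising protein of the spindle, and Ckap2l (chromosome 2, 129268210 to 129297212, minus strand) encodes its paralog, also called radmis, known from neural progenitors. Ckap2 gave 1687, 2874 and 3324 normalized counts in EF and 592, 509.9 and 544 in PDGFA, the smallest fall among the 8 genes. Its log2 fold change was -2.20 (SE 0.25, limma adjusted p = 0.000517), and the mean fell 4.79-fold to 548 ± 41.0 (SD, n = 3). Ckap2l gave 2408, 3745 and 4533 in EF and 33.9, 43.9 and 60.9 in PDGFA. It fell 77.0-fold, from 3562 ± 1074 (SD, n = 3) to 46.3 ± 13.6 (SD, n = 3), with a log2 fold change of -6.23 (SE 0.31, limma adjusted p = 1.97e-05).

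The paralogs were thus close in EF and far apart in PDGFA. Within each library, log2 Ckap2 minus log2 Ckap2l stood at -0.51, -0.38 and -0.45 in the EF libraries and at 4.08, 3.51 and 3.14 in the PDGFA libraries. The mean difference changed by 4.02, and the groups did not overlap (exact two-sided permutation p = 0.1, the smallest possible). In the same way the mean of log2 Ckap5 and log2 Numa1 minus the mean of the other 8 members stood at 1.74, 1.36 and 1.19 in the EF libraries and at 6.60, 6.50 and 6.19 in the PDGFA libraries. That change was 5.003 (exact two-sided permutation p = 0.1), and since Ckap5 and Numa1 were set apart after their values were known, it is a description. As each of these 3 contrasts is taken within a library, scaling between libraries enters only through the 1 added to each normalized count. With 0.5 or 5 added instead, the change of Ckap5 and Numa1 against the other 8 was 5.02 or 4.91.

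**Figure D3:**
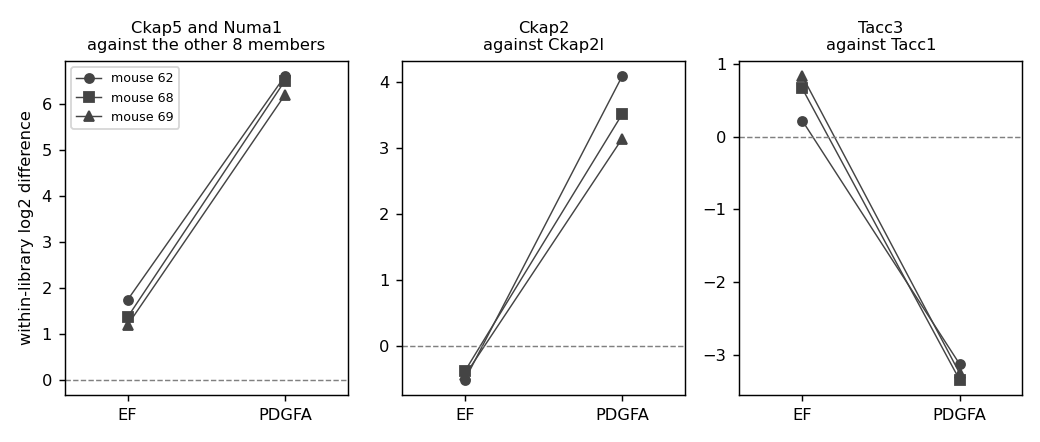
Log2 differences between genes within each library (vertical axis) for 3 contrasts, with 1 point for each of the 3 EF and 3 PDGFA libraries. Tacc1, in the contrast with Tacc3, is not a member. Ckap2 minus Ckap2l lies between -0.51 and -0.38 in EF and between 3.14 and 4.08 in PDGFA, and no contrast overlaps between the groups.

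Divided by the length of annotated exons, the members' levels in EF lay close to one another and in PDGFA far apart. In EF the mean per kilobase ran from 1401 normalized counts for Tpx2, through 1318 for Ckap5 and 1137 for Numa1, down to 577 for Hmmr. Every pair of neighbours in the EF order had overlapping ranges. In PDGFA Numa1 (1159 per kilobase) and Ckap5 (1138) came first with overlapping ranges, followed by Ckap2 (171), Tacc3 (75.8), Spag5 (56.1), Tpx2 (28.7), Nusap1 (20.2), Ckap2l (14.7), Aspm (7.32) and Hmmr (2.95). There the ranges of neighbours overlapped for Numa1 and Ckap5, for Tpx2 and Nusap1, and for Nusap1 and Ckap2l. Tpx2 thus held the first place in EF and the sixth in PDGFA.

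The members also shared an order among libraries. EF of mouse 69 was the highest EF library for 10 of 10 members, against 41.3% of all tested genes. EF of mouse 62 was lowest for 9 of 10, against 42.6%, and Numa1 was lowest in EF of mouse 68. This EF order was not particular to the members. Each mitotic gene of the reference list given below was also lowest in EF of mouse 62 and highest in EF of mouse 69. Mki67, for example, gave 17595, 27183 and 33851 for mice 62, 68 and 69. In PDGFA mouse 69 was highest for 6 and mouse 62 lowest for 7 of 10, against 38.2% and 36.6% of tested genes. The median SD between replicates on the log2 scale was 0.43 in EF and 0.19 in PDGFA for the members, and 0.38 and 0.17 for all tested genes. Reads per library were fewest in EF of mouse 69, and the part of depth in this order was not tested.

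The promoters of members were set beside these values, since many genes expressed in G2 and mitosis carry a CHR element, bound by the MuvB-containing DREAM and MYBL2 complexes, often beside CCAAT boxes bound by NF-Y. RefSeq promoter windows (GRCm38.p6, 250 bases before to 50 after the start) held 9 of the 10 members; Tpx2 was not among them. The 150 bases before the start are shown for the members that fell furthest (Hmmr, Aspm and Ckap2l), for Ckap5, which was not called, and for Tacc3, which fell without any of the motifs. They are chr11:40733438-40733587 (minus strand), chr1:139454622-139454771 (plus), chr2:129297213-129297362 (minus), chr2:91526612-91526761 (plus) and chr5:33657978-33658127 (plus), written 5′ to 3′ along the gene. Capitals mark CHR elements (TTTGAA, or TTCAAA where it lies on the other strand) and CCAAT boxes (CCAAT, or ATTGG on the other strand), and the last 2 capitals of Ckap5 begin a CCAAT box that runs past the start. The stretch of Aspm ends 1 base short of the RefSeq start, since that base lies in an annotated exon.
Hmmr: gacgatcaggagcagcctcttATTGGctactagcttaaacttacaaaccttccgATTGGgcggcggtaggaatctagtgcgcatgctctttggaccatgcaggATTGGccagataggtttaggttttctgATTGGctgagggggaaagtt
Aspm: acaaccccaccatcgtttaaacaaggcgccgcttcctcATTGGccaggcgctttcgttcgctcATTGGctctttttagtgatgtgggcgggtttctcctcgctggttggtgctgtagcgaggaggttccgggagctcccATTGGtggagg
Ckap2l: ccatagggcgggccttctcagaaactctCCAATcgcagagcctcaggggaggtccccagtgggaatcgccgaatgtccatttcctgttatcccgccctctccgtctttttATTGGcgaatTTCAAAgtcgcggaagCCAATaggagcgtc
Ckap5: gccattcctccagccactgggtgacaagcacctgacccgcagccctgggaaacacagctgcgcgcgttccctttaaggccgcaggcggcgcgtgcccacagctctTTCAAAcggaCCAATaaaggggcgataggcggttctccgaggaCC
Tacc3: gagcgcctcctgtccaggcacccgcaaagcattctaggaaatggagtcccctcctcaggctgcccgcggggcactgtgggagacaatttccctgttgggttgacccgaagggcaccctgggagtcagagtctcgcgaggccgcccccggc

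The CHR letters TTTGAA, searched on both strands, stood in the windows of 6 of 9 members and in 17.9% of 32851 windows. CCAAT stood in the same number, 6 of 9, and in 37.4% of all windows. A CHR element together with CCAAT stood in 6 of 9 members and in 7.52% of windows. The other CHR form, TTCGAA, and the E2F motif GCGGGAA were in none of the 9 and in 1.56% and 4.60% of windows. Either form of the CHR stood in 19.2% of windows, and the letters of no motif contain those of another.

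The holders were Hmmr, Aspm, Ckap2l, Spag5, Ckap2 and Ckap5. In Hmmr 5 CCAAT boxes lay before the start, 4 of them in the stretch shown, and the CHR at positions 9 to 14 after it, and in Aspm 3 CCAAT boxes lay before the start and the CHR at 7 to 12 after it. Ckap2l had a CHR from -30 to -25, on the other strand, and one from 42 to 47. Ckap5, which did not pass the test, had a CHR from -45 to -40 and CCAAT boxes from -35 to -31 and from -2 to 3. Nusap1 and Tacc3, with log2 fold changes of -5.32 and -3.83, had none of the motifs in this window, nor had Numa1, whose RefSeq window begins inside the annotated gene. A match is a description of the letters and says nothing about binding.

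**Figure D4:**
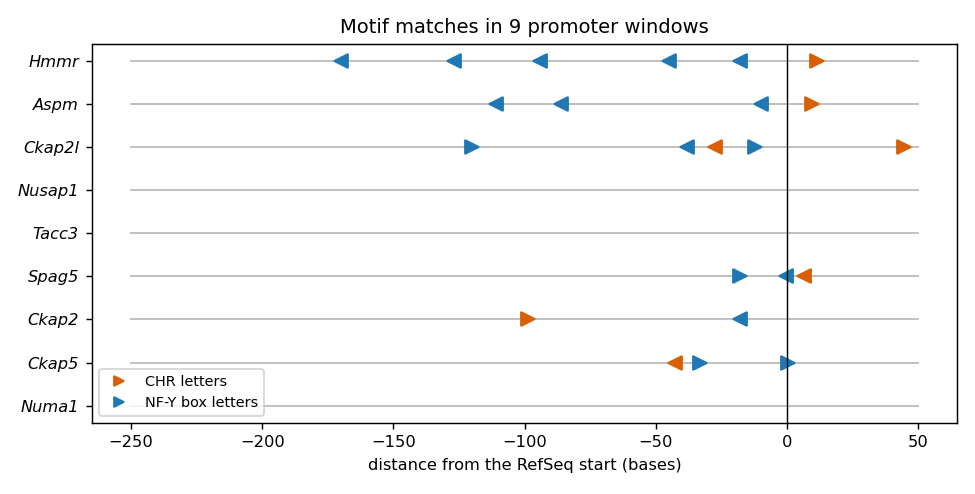
Positions of CHR elements and CCAAT boxes (labelled NF-Y box letters) relative to the RefSeq start (horizontal axis, bases) in the promoter windows of 9 members, ordered by log2 fold change, with triangles pointing right on the gene's strand and left on the other. Motifs stand in 6 members, Ckap5 among them, and in neither Nusap1, Tacc3 nor Numa1.

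Of 10 genes for factors that bind these motifs, or that act in complexes that bind them, 4 fell and 1 rose. Foxm1, the activator of late cell cycle genes, fell by 4.59, Mybl2, the B-MYB subunit that joins MuvB in dividing cells, fell by 4.35, and Lin9, a MuvB core subunit, fell by 1.79 on the log2 scale (limma adjusted p = 5.69e-05, 0.000193 and 0.000729). Lin52, another MuvB subunit, rose by 0.87 (limma adjusted p = 0.00731), but not without PDGFA of mouse 68 (0.0581). With equal library totals as the scaling, 7 of these genes were called lower. The NF-Y genes Nfya, Nfyb and Nfyc did not pass the test, at -0.44, -0.22 and -0.38. Nfya and Nfyc were called lower with equal library totals (limma adjusted p = 0.027 and 0.0448) and without EF of mouse 62 (0.0259 and 0.0379).

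The last groups were microtubule proteins with less specific ties to the members. Of the 10 genes for augmin and microtubule branching, which grow new microtubules from old ones inside the spindle, 8 fell, with a median of -1.27. The augmin subunits Haus4, Haus3 and Haus5 had log2 fold changes of -2.77, -1.95 and -1.89, while Haus2 (0.21) and Haus7 (-0.07) did not pass the test. Without both libraries of mouse 68, 5 of the 10 were called lower. Of the 10 general plus-end and lattice proteins, 3 fell and 4 rose, with a median of -0.02. Dlgap5 (HURP), which binds kinetochore microtubules, fell by 6.22 (limma adjusted p = 2.5e-05). Mapre2 and Mapre3, which encode EB proteins that track growing ends, rose by 2.36 and 1.30, and Clasp2 and Clip1, other plus-end proteins, rose by 1.12 and 0.96. Map4 fell by 0.58 and Clasp1 by 0.37 on the log2 scale, and neither call was steady. Map4 was not called without PDGFA of mouse 62 (adjusted p = 0.102), 68 (0.106) or 69 (0.0515). Clasp1 was lost in 10 alternatives, among them the fit with mouse as a block (adjusted p = 0.138). The number called lower in this list ran from 1 without PDGFA of mouse 62 to 5 without EF of mouse 62.

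Over all 9 partner lists, 67 of 68 genes were tested, of which 38 fell, 8 rose and 21 were not called. Of all tested genes 18.0% were called lower and 21.8% higher. Without both libraries of mouse 68 the 38 became 26. With single libraries left out it ran from 31 (without PDGFA of mouse 62 or 68) to 41 (without EF of mouse 62). No fit left out both libraries of mouse 62 or of mouse 69, so the fall to 26 cannot be put down to mouse 68 in particular. As a scale for these values, 10 of 10 mitotic genes outside the group, among them Mki67, were called lower, and their median log2 change was -6.46. Their summed normalized counts were 52305 to 110552 in EF and 665 to 1019.6 in PDGFA. The median of the spindle assembly members, at -4.57, lay between this list and the Aurora A list (-4.51), and its spread from -7.60 to 0.03 was wider than either. No test was made between these lists.

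**Figure D5:**
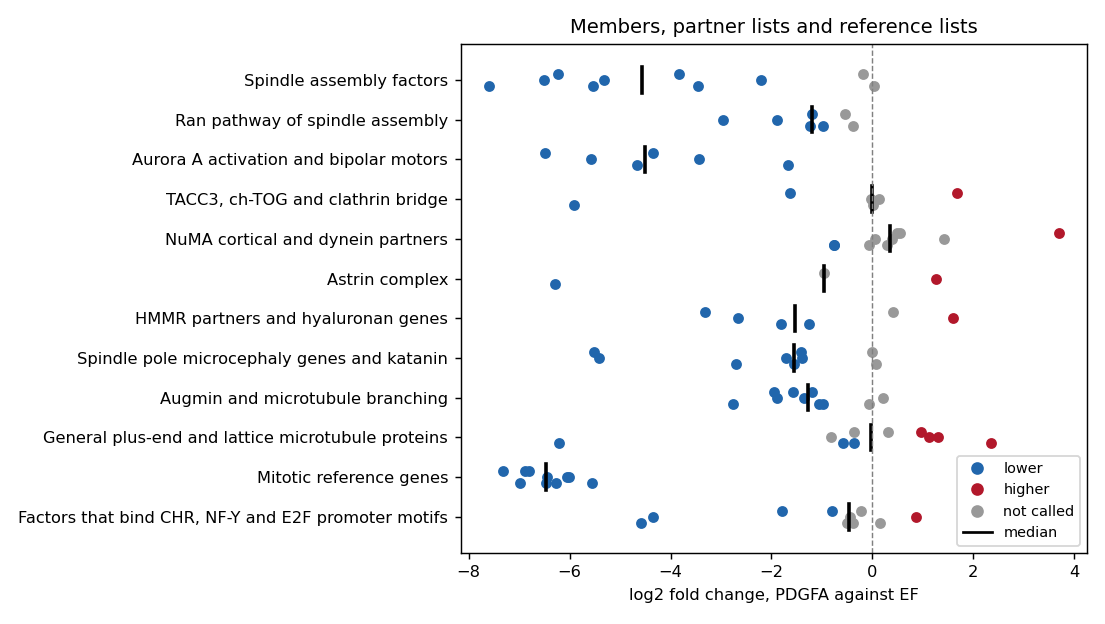
Log2 fold change, PDGFA against EF, of each tested gene (points, blue where called lower, red where called higher, grey where not called) in the spindle assembly group, 9 partner lists and the reference lists, with a black bar at each list's median. The Aurora A and mitotic reference genes lie below 0 throughout, and the NuMA and plus-end lists lie on both sides.

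The genes nearest to the members in their pattern over the 6 libraries were measured by the root mean square difference between centred log2 values. The 5 nearest to the median of the members were Arhgap11a (0.108), Cks2 (0.124), Cdc42ep1 (0.127), Pole (0.133) and Kif20b (0.14), whose log2 fold changes lay between -4.67 and -4.36. The nearest to Ckap5 were Ssr3 (0.0297), a subunit of the translocon-associated complex, and Uqcrc2 (0.034), a subunit of respiratory complex III. The nearest to Numa1 were Npat (0.0147), a histone gene activator, and Rpl22 (0.0319), a ribosomal protein. These distances over 6 libraries of 2 groups mostly reflect the size of the change between the groups.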

How the data were processed

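The sample titles give the medium, mouse and duration, and each library was made from 1.3 ug of total RNA, per the labels' protocols. The kit named there does not mark strand, so overlapping antisense genes are not separated. The authors deposited 1 table of normalized signal, read counts per gene divided by a size factor per library, for 22057 genes. Per the submitters' processing notes the tools were STAR, DESeq2 and FastQC, without versions, and the build mm10, that is GRCm38; the annotation is not given in the sources used here. Values divided by the step of 1 read came out whole for 100% of values within 0.001, so reads were recovered.

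Genes with a mean normalized count of at least 10 (17068; 4989 were below) were tested with limma 3.58.1 in R 4.3.3 on log2(value + 1), with a trend, group as the only term, Benjamini-Hochberg adjustment over all tested genes and a threshold of 0.05. On the recovered counts, edgeR 4.0.16 and DESeq2 1.42.0 were alternatives, calling 3592 and 3942 genes higher and 3263 and 3746 lower, beside 3720 and 3076 for limma. Other alternatives were the pseudocounts 0.5 and 5, no filter or a mean of at least 50, no trend, TMM scaling and equal library totals. Further ones took mouse as a replicate block, left out each library, or left out both libraries of mouse 68. No fit left out both libraries of mouse 62 or of mouse 69. The test was tried on simulated data. Replicates of a group differed by more than sampling noise in every pair (chi-square per degree of freedom 21.9 to 155). The labels give both groups the same mice, which pairs the libraries; deviations of the same mouse correlated at -0.0906 (62), 0.11 (68) and -0.11 (69) over 17068 genes.

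The members and lists were chosen with earlier results of these data known. All members are named; of each list, the 3 called genes with the largest change, those called against the majority, and all genes of lists of up to 3; other genes of the lists were picked after their values were seen. Exon lengths and positions are from GENCODE M21, promoters from RefSeq. Intervals are 95%.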

Additional observations from a re-analysis of the deposited data

How the results depend on the processing

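The 8 members that fell were called lower under all 17 alternatives, and no member was called higher in any. Ckap5 was called lower in 1 of them, without EF of mouse 62 (log2 fold change -0.36). Numa1, never called, changed sign with equal library totals (-0.032) and, leaving out libraries, ran from -0.0895 without both libraries of mouse 68 to 0.0979 without EF of mouse 69. The number of all genes called higher ran from 1943 without both libraries of mouse 68, or 2245 without PDGFA of mouse 68, to 4271 without EF of mouse 62, and the number called lower from 1333, or 1873, to 3818; fewer libraries enter these fits. With mouse as a replicate block, 3213 genes were called higher and 2626 lower, 8 members stayed lower, and of the partner genes 38 were lower and 8 higher, with Stmn1 gained (adjusted p = 0.0426) and Clasp1 lost. Among the marker genes the block lost P2ry12 and Pecam1 and gained Pdgfra and Slc1a2. Hmmr in PDGFA rests on 8 to 28 reads, which limits the precision of its fold change more than that of any other member.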
